A study of Mus musculus with 32 samples.

Results

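Dietary fatty acids are taken up by enterocytes, bound in the cytosol by fatty acid binding proteins and activated to acyl-CoA before they enter triglyceride synthesis or oxidation. Hepatocyte nuclear factor 4 alpha (HNF4A) is a nuclear receptor that keeps lipid metabolism genes active in the intestine and liver. HNF4A binding was described here at 9 genes of these steps. Cd36, Slc27a2 and Slc27a4 encode proteins of uptake, Fabp1 and Fabp2 encode cytosolic binding proteins, and Acsl1, Acsl3, Acsl4 and Acsl5 encode long-chain acyl-CoA synthetases. Peaks of 8 HNF4A ChIP-seq libraries that had 1 bp or more in common were joined, and merged sites inside the body of a gene or up to 20 kb on either side were kept. This gave 56 binding sites at 8 of the 9 genes, out of 45552 merged sites in the genome. Fabp2 and Slc27a4 each held 10 sites, Slc27a2 held 9, Acsl5 held 8, Acsl1 held 7, Cd36 held 6, Fabp1 held 4 and Acsl3 held 2, and no library had a peak at Acsl4.

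The libraries came from jejunal intestinal epithelial cells (IECs) of male C57BL/6J mice, 10 to 12 weeks old. All 8 mice were given a high-fat meal (HFM), an egg yolk emulsion delivered by gavage, and tissue was taken 2 hours later. The 4 GF+HFM mice were germ free, and the 4 CV+HFM mice were born germ free and carried a conventional microbiota for 14 days. Both groups received the meal, so mice without and with a microbiota were compared after it. The cell preparations were not sorted. Besides the dominant epithelium of the villi, crypt cells and mesenchyme contribute to them, and the peak lists carry no expression values with which cell type markers could be checked. With such preparations, fewer cells bound by HNF4A and less binding per cell cannot be told apart.

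The peak lists give the position of each peak and no height, score or read count, so the depth of the libraries is unknown. GF+HFM lists held 31061 to 36846 peaks, and CV+HFM lists held 29345, 9206, 21033 and 4533 peaks in replicates 1 to 4. CV+HFM replicates 2 and 4 therefore stand apart, calling 19.2% and 8.97% of all merged sites, against 64% to 76.4% in the GF+HFM libraries. A site missing from a short list may still be bound. As a stand-in for strength, the width of each peak was ranked within its own list and given as a width percentile, where 100 is the widest peak of that library. The narrowest listed peak differed between libraries, with 157 to 223 bp for GF+HFM lists and 52 to 171 bp for CV+HFM lists.

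The reference sequence under the best supported site of each gene is given here, since these are the bases that all calling libraries had in common. HNF4A binds as a dimer to direct repeats of the nuclear receptor half-site AGGTCA with 1 base between them (AGGTCANAGGTCA, where N is any base), and CAAAGTCCA is a word favoured by HNF4 proteins over other nuclear receptors. Each line holds at most 200 bases shared by every calling peak, on the plus strand of mm9, without annotated UTR bases. Capitals mark exact copies of CAAAGTCCA and direct repeats with at most 2 mismatches, on either strand. The Slc27a2 upstream site and the intron 2 site of Slc27a4 are added because every GF+HFM list and no CV+HFM list held them, and the second Acsl5 site because all 8 libraries called it.
Cd36 intron 4, chr5:17330735-17330903: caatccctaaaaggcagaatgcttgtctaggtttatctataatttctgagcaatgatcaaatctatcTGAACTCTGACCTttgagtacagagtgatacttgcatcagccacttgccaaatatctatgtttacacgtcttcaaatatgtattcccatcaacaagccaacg
Slc27a2 intron 1, chr2:126381338-126381537: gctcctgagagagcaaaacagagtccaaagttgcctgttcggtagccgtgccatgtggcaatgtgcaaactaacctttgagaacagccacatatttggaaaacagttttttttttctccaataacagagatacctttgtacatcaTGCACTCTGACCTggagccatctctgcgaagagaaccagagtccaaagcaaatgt
Slc27a2 upstream, chr2:126375639-126375838: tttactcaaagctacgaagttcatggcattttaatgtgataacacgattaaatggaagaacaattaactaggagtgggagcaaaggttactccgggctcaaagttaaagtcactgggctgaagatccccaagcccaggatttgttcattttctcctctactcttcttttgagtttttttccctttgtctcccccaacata
Slc27a4 intron 4, chr2:29663491-29663635: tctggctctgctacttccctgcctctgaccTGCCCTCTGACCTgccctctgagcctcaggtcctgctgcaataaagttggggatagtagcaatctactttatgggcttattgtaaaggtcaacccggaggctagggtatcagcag
Slc27a4 intron 2, chr2:29659912-29660080: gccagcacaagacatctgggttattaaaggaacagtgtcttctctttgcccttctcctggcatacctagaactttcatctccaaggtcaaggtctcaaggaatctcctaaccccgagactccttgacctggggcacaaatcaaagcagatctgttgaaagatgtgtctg
Fabp1 gene start, chr6:71149683-71149820: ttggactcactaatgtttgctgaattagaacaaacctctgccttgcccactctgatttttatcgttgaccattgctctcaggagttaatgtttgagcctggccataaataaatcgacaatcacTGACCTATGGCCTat
Fabp2 upstream, chr3:122581961-122582160: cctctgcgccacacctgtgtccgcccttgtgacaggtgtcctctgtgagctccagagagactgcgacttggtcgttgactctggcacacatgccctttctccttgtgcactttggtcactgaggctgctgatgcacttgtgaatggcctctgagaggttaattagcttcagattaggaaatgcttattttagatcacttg
Acsl1 intron 12 and next exon, chr8:47611531-47611686: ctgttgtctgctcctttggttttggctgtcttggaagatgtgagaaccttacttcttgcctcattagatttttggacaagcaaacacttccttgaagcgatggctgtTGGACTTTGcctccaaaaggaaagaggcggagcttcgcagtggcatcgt
Acsl3 gene start, chr1:78654170-78654369: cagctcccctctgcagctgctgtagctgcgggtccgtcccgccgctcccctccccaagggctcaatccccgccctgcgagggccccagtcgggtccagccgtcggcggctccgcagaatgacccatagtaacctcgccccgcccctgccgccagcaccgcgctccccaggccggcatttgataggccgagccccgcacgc
Acsl5 far upstream, chr19:55322244-55322443: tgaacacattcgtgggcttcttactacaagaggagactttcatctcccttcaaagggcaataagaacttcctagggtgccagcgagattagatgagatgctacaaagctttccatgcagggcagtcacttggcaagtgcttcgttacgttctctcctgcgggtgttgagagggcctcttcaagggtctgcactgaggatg
Acsl5 near upstream, chr19:55326294-55326442: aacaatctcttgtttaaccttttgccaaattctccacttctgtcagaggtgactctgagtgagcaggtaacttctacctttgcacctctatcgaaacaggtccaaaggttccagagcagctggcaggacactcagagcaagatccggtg

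In the bases printed, the Cd36, Slc27a4 intron 4 and Fabp1 sequences each hold a direct repeat with 1 mismatch, the Slc27a2 intron 1 sequence holds one with 2 mismatches, and the Acsl1 sequence holds the word CAAAGTCCA on the minus strand, in the coding exon that follows intron 12. The Fabp2, Acsl3 and Acsl5 sequences and the added sequences of Slc27a2 and Slc27a4 hold neither. Outside the bases printed, the same Slc27a2 intron 1 and Fabp2 upstream sites each hold a direct repeat with 1 mismatch. The Slc27a2 upstream site holds one with 2 mismatches there. Over the whole length of the 56 sites, 13 sites held 15 direct repeats with at most 2 mismatches and 2 sites, at Fabp2 and Acsl1, held the word. The last bases of a direct repeat can overlap the word, and no such overlap occurred at these sites. In windows of 200 bp centred on the median peak midpoint, a direct repeat with at most 2 mismatches lay in 9 of 56 sites (16.1%), against 14% of 45325 merged sites on assembled chromosomes. The word lay in 1 of 56 such windows (1.79%), against 5.64% of all merged sites. These letters were therefore present at few of the sites, as they were at few HNF4A sites of the genome.

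Sites at the 9 genes were spread over flanks and introns. The midpoint lay upstream of the gene at 21 sites, in an intron at 19, downstream at 9, in an exon at 6 and in the gene body outside the transcript used for numbering at 1. Of the intronic sites, 11 lay in introns 1 or 2. Only 4 of the 56 sites covered an annotated gene start, those of Fabp1, Fabp2, Slc27a4 and Acsl3. Midpoints lay within 1 kb of any protein-coding gene start at 12 sites (21.4%), against 14.2% of all merged sites, and over 10 kb away at 20 sites (35.7%), against 59.6%. The choice of a window around genes itself brings sites closer to gene starts. For 12 of the 56 sites, the nearest protein-coding start was that of another gene, including Coq4, Trub2 and Urm1 beside Slc27a4, Zdhhc6 and Gucy2g beside Acsl5, Mlf1ip beside Acsl1 and Hdc beside Slc27a2. The map of calls along each gene shows these positions.

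**Figure D1:**
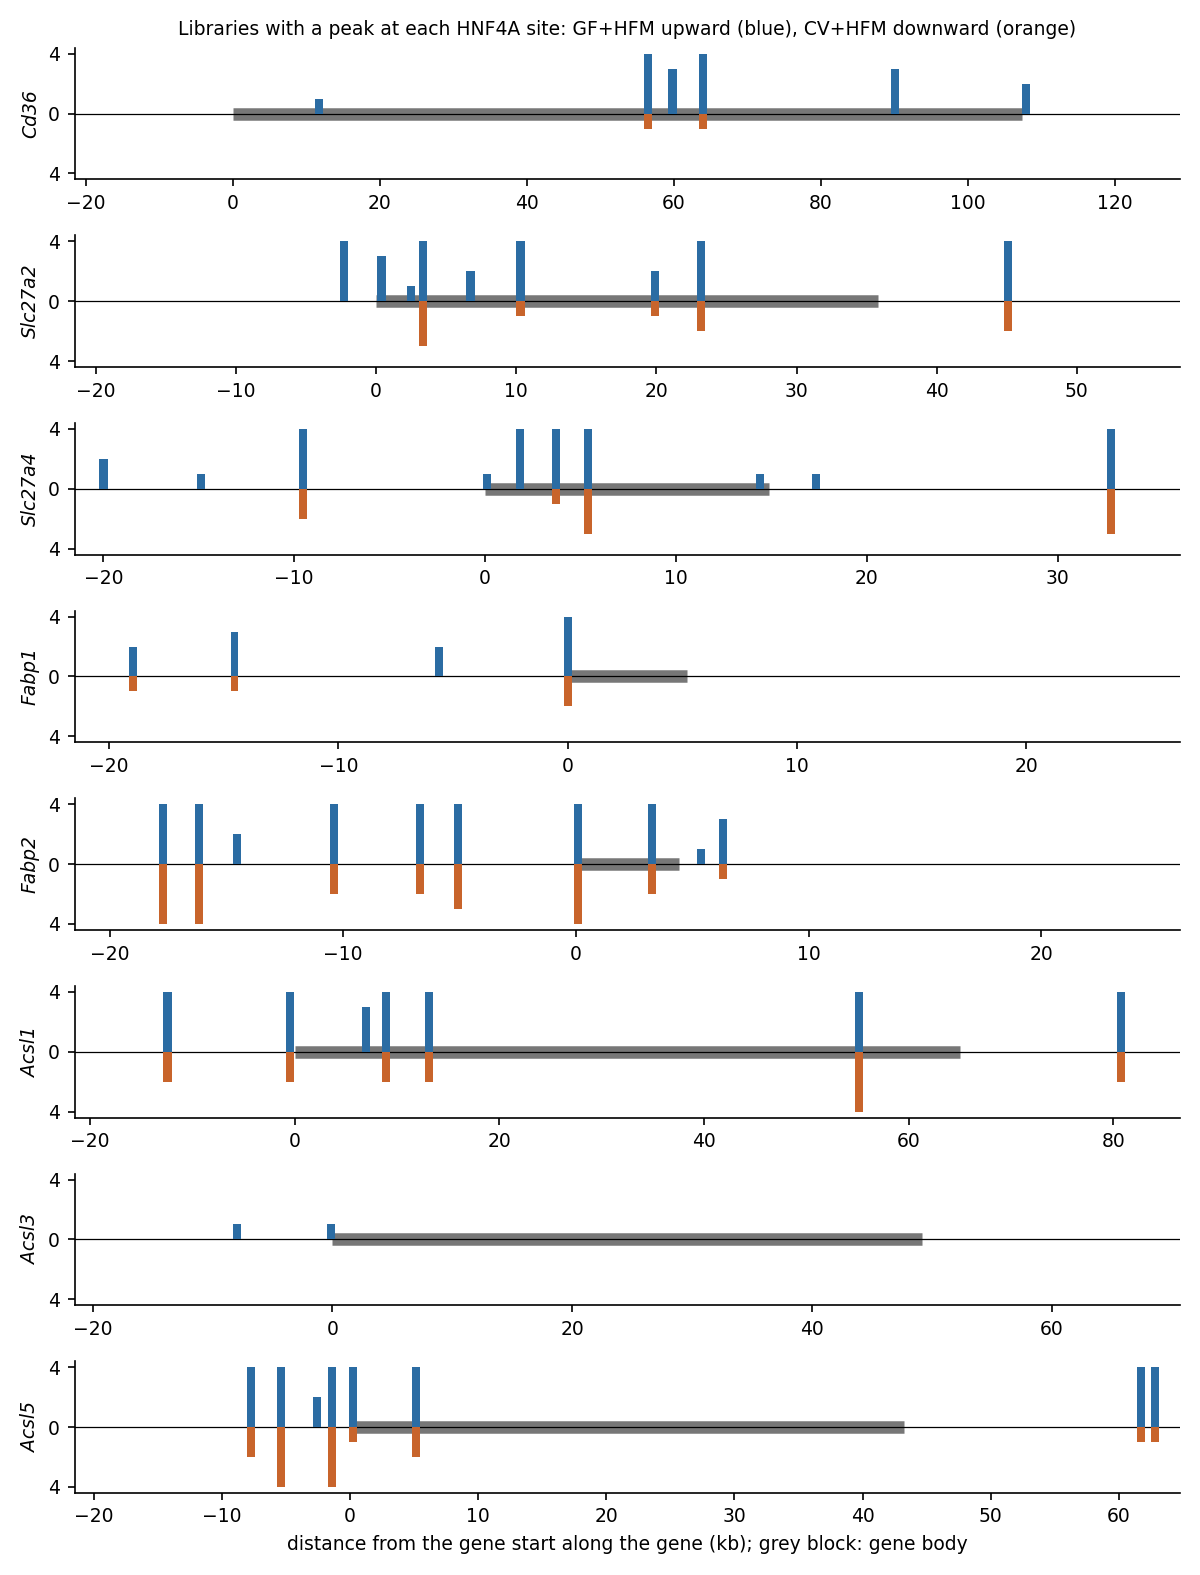
HNF4A sites at the 8 genes that had any, by distance of the site's midpoint from the annotated gene start in kb, with negative values upstream and the gene body in grey. Blue bars count GF+HFM libraries with a peak and orange bars below the line count CV+HFM libraries, each up to 4. Bars reach 4 in both directions at 3 sites of Fabp2, 1 of Acsl1 and 2 of Acsl5.

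Sites at these genes had more calls in GF+HFM than in CV+HFM, as did sites elsewhere. GF+HFM replicates 1 to 4 called 45, 38, 44 and 48 of the 56 sites, and CV+HFM replicates 1 to 4 called 32, 10, 27 and 6. The means were 43.8 ± 4.19 (SD, n = 4) and 18.8 ± 12.7 (SD, n = 4), and every GF+HFM library called more of them than every CV+HFM library. Relative to the length of the lists, the groups were not separated. The 56 sites made up 1.29, 1.3, 1.34 and 1.42 of every 1000 sites called in the GF+HFM libraries and 1.16, 1.14, 1.37 and 1.47 in the CV+HFM libraries, and these ranges overlap. When each list was reduced to its 4533 widest peaks, the length of the shortest list, the genes kept 4, 5, 7 and 9 sites in the GF+HFM libraries and 4, 6, 6 and 7 in the CV+HFM libraries.

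At single sites, calls were shared at rates near those of the genome. All 4 GF+HFM libraries called 33 of the 56 sites (58.9%), against 50.6% of all merged sites. Of these 33, CV+HFM replicates 1 to 4 called 29, 10, 26 and 6. That is 87.9%, 30.3%, 78.8% and 18.2%, against 91.6%, 37.1%, 78% and 17% of the 23049 such sites in the genome. At no site of the 9 genes did CV+HFM calls outnumber GF+HFM calls, a pattern held by 2.86% of all merged sites. GF+HFM calls outnumbered CV+HFM calls at 50 of the 56 sites (89.3%, against 86.5% of all sites). Both were equal at 6 of the 56 sites (10.7%, against 10.7% of all sites). These were the 6 sites called in all 8 libraries, a pattern held by 7.56% of all sites.

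Calls in all 4 GF+HFM and no CV+HFM libraries, the largest contrast that 4 against 4 mice allow, occurred at 2 of the 56 sites (3.57%), 1 at Slc27a2 and 1 at Slc27a4, against a background of 2.79% of 45552 sites. Each had a two-sided p of 0.0286 by Fisher's exact test, the smallest this design can give, and an adjusted p of 0.824 over all merged sites. The count was 7 without CV+HFM replicate 1 (background 10.9%), 5 without GF+HFM replicate 2 (5.6%), and leaving out CV+HFM replicate 3 gave 4 (4.21%).

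**Figure D2:**
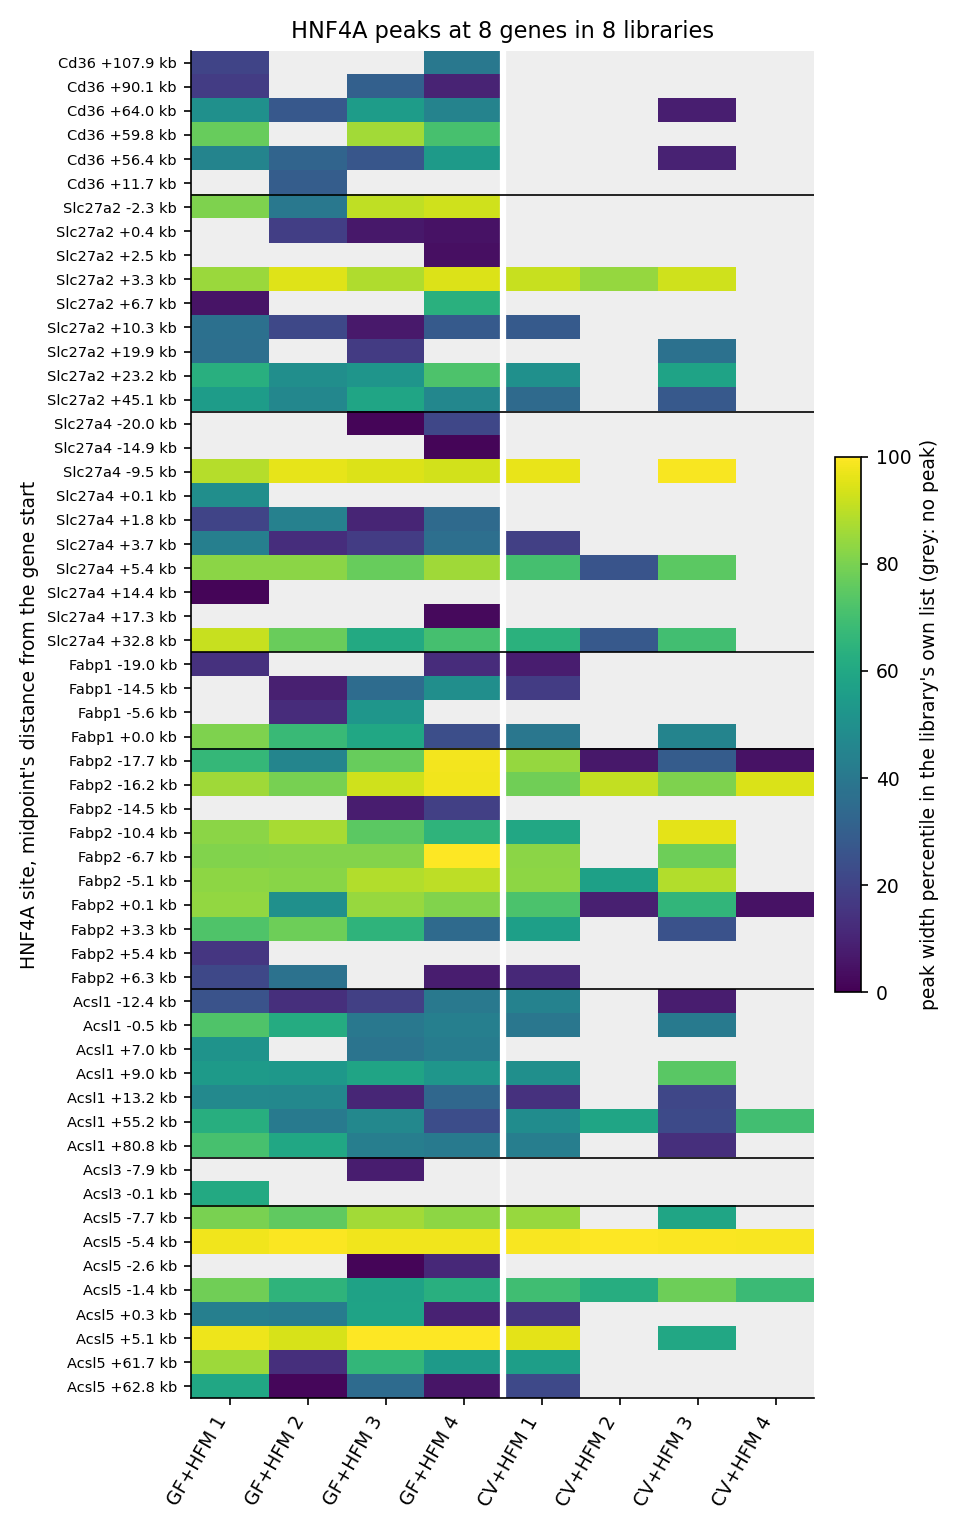
Width percentile of the HNF4A peak at each of the 56 sites (rows, by gene and distance of the midpoint from the gene start in kb) in the 8 libraries (columns), where 100 is the widest peak of a library and grey marks no peak. Where a library had 2 peaks in a site, the wider is shown. The Acsl5 site 5.4 kb upstream lies at 97.8 or above in every library, and the CV+HFM 2 and CV+HFM 4 columns are mostly grey.

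Cd36, a membrane glycoprotein that binds and takes up long-chain fatty acids, lies on the minus strand at chr5:17287508-17394777. GF+HFM libraries called 5, 3, 4 and 5 of its 6 sites, and CV+HFM libraries called 0, 0, 2 and 0. The means were 4.25 ± 0.957 and 0.5 ± 1 sites (SD, n = 4 each), and the groups do not overlap. The difference gave p = 0.0286 by an exact permutation test over 70 relabellings, two-sided, and an adjusted p of 0.234 over 14653 gene windows. Cd36, Slc27a2 and Slc27a4 were the 3 of 9 genes with more sites in every GF+HFM than in every CV+HFM library. The background was 12.2% of the 14653 windows with at least 1 site, while the 9 genes include Acsl4, which had none. Windows with a site had a median of 3 sites, against 6, 9 and 10 at these 3 genes. The background was not matched for the number of sites. By the permutation test, 1788 windows had an unadjusted p below 0.05 and 0 passed an adjusted p of 0.05. This test gives no p below 0.0286, and the smallest adjusted p of any window was 0.234. Without CV+HFM replicate 1, 6 of the 9 genes had more sites in every GF+HFM library (background 38.2%). Per 1000 sites of the library, Cd36 alone kept all GF+HFM libraries (0.103 to 0.148) above all CV+HFM libraries (0 to 0.101). The background was 4.38% of windows. With lists of equal length the separation was not kept, since Cd36 then held 0 sites in all 8 libraries.

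The Cd36 sites lay far from the annotated start of the gene, and shorter transcripts start inside it. The site closest to that start, chr5:17382914-17383150, was called in GF+HFM replicate 2 alone, at a width percentile of 29.4. The sites in introns 2, 3 and 4 lay 3378, 6744 and 10897 bp from the nearest annotated transcript start. The intron 4 site, chr5:17330581-17331054, whose sequence is printed above, was called at 50.2, 27.6, 55.3 and 44.7 in the GF+HFM libraries and at 8.29 in CV+HFM replicate 3. The intron 2 site, chr5:17338090-17338582, had the same libraries, at 45, 32.4, 26.9 and 54.6 in GF+HFM and 9.46 in CV+HFM replicate 3. These were peaks of middling width in GF+HFM and among the narrowest in the only CV+HFM library that had them. The widest Cd36 peaks lay between them, in intron 3 at chr5:17334587-17335354, with percentiles of 76.9, 86 and 70.8 in GF+HFM replicates 1, 3 and 4 and no peak in the other 5 libraries.

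Slc27a2 encodes a fatty acid transport protein with very long-chain acyl-CoA synthetase activity and lies at chr2:126378143-126413979 on the plus strand. GF+HFM libraries called 7, 6, 7 and 8 of its 9 sites and CV+HFM libraries called 4, 1, 4 and 0, with means of 7 ± 0.816 and 2.25 ± 2.06 (SD, n = 4 each; exact permutation test, two-sided, p = 0.0286, adjusted p = 0.234). The upstream site chr2:126375345-126376339, 2301 bp before the gene start, was called at width percentiles of 80.6, 40.1, 90.5 and 92.7 in the 4 GF+HFM libraries, or 505, 267, 795 and 995 bp. No CV+HFM library had a peak there. Among the 3312 sites of the genome called in all 4 GF+HFM libraries with a mean width percentile from 70 to 80, as at this site (mean 76 ± 24.5, SD, n = 4), 12 sites or 0.362% lacked a peak in all 4 CV+HFM libraries. This share is a description and not a test, since the site is 1 of 33 with 4 GF+HFM calls and is shown for its lack of CV+HFM peaks, and its mean includes the 40.1 of GF+HFM replicate 2. The absence includes CV+HFM replicates 1 and 3, which called 91.6% and 78% of all sites that the GF+HFM libraries shared.

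The neighbouring intron 1 site of Slc27a2, chr2:126380948-126382029, was wide in both groups. It covers the annotated start of another Slc27a2 transcript, 378 bp from its midpoint. Its percentiles were 85.1, 95, 88 and 94.7 in GF+HFM and 91.7, 84.2 and 92.9 in CV+HFM replicates 1 to 3, with no peak in replicate 4. The ranges of the groups overlap. Both sites lie within 4 kb of the gene start, the upstream site without and the intronic site with peaks in CV+HFM. The site closest to the gene start, in exon 1 at chr2:126378364-126378703, was narrow. Its percentiles were 18.6, 6.58 and 4.89 in GF+HFM replicates 2 to 4, with no other peak. Of the remaining 6 sites of Slc27a2, 3 had peaks in every GF+HFM library and in 1 or 2 CV+HFM libraries.

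Slc27a4 encodes the fatty acid transport protein best known from enterocytes, which also activates very long-chain fatty acids. It lies at chr2:29658154-29673042 on the plus strand. Libraries called 7, 5, 6 and 8 of its 10 sites in GF+HFM and 4, 2, 3 and 0 in CV+HFM, with means of 6.5 ± 1.29 and 2.25 ± 1.71 (SD, n = 4 each; exact permutation test, two-sided, p = 0.0286, adjusted p = 0.234). Its start carried 1 peak in GF+HFM replicate 1, at chr2:29658089-29658400 and a percentile of 49.6. The better supported sites lay in introns and flanks. The intron 4 site chr2:29663160-29663971 was called at 82.8, 82.6, 76.8 and 85.9 in GF+HFM and at 70.4, 25.9 and 74.9 in CV+HFM replicates 1 to 3, so each CV+HFM value lies below each GF+HFM value. In the limma test over sites called in at least 6 libraries, the score of this site differed by -0.48 ± 0.37 (SE; CV+HFM minus GF+HFM) with an adjusted p of 0.806.

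The Slc27a4 site without CV+HFM peaks, in intron 2 at chr2:29659806-29660190, was narrow in GF+HFM, at percentiles of 20.7, 44.1, 10.3 and 34.6. Absence from CV+HFM lists was common at this width, since 387 of 1674 sites (23.1%) with mean GF+HFM percentiles from 20 to 30 had no CV+HFM peak. Wide peaks of the Slc27a4 window lay 9533 bp upstream at chr2:29648120-29649123. They stood at 89, 96.4, 94.9 and 93 in GF+HFM and at 96.8 and 99 in CV+HFM replicates 1 and 3. Here each CV+HFM value lies above each GF+HFM value, the reverse of the intron 4 site. In the same limma test, the score of this upstream site differed by 0.74 ± 0.41 (SE) with an adjusted p of 0.734. The share of all sites separated in either direction was not counted. This site is 4599 bp from the start of Trub2, which is nearer than that of Slc27a4. Urm1 likewise has the nearest start to the downstream site chr2:29690509-29691387, which had 4 calls in GF+HFM and 3 in CV+HFM.

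**Figure D3:**
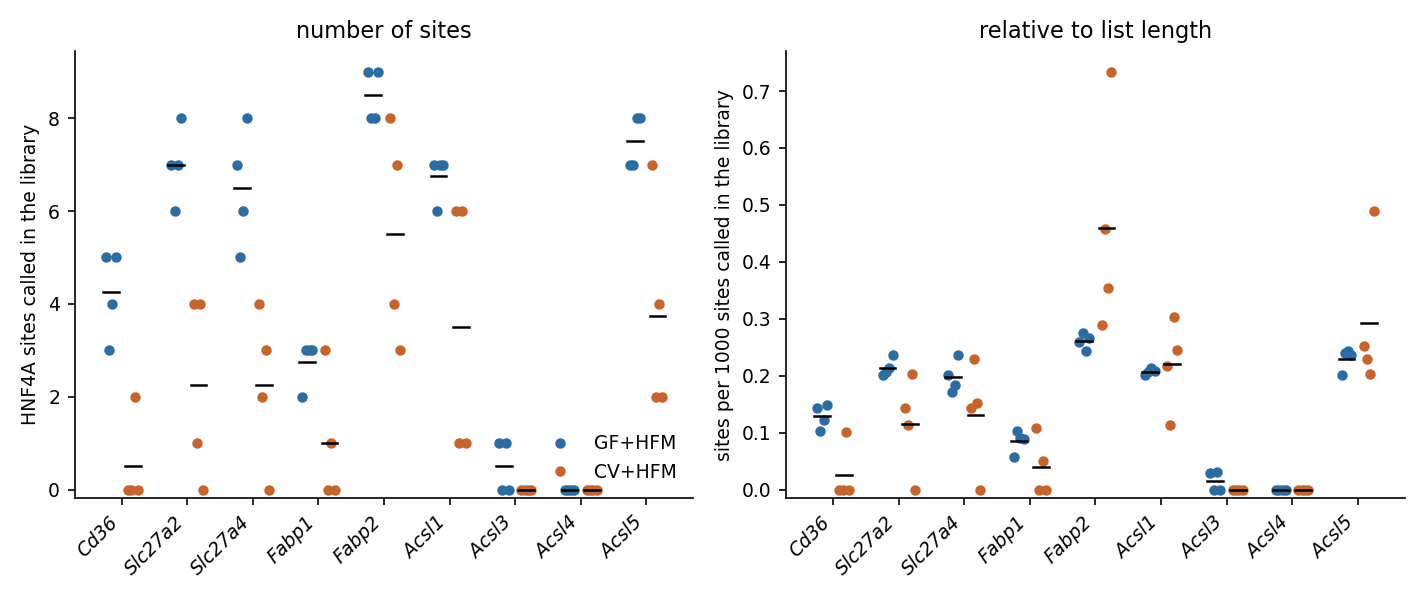
HNF4A sites called at each of the 9 genes, 1 point per library (blue, GF+HFM; orange, CV+HFM) with the group mean as a black line, as numbers on the left and per 1000 sites called in the library on the right. On the left, GF+HFM points lie above all CV+HFM points at Cd36, Slc27a2 and Slc27a4. On the right this holds at Cd36, and at Fabp2 all CV+HFM points lie above the GF+HFM points.

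Fabp1, the fatty acid binding protein shared by liver and proximal intestine, lies at chr6:71149821-71155017 on the plus strand and had 4 sites. GF+HFM libraries called 2, 3, 3 and 3 of them and CV+HFM libraries called 3, 0, 1 and 0, so the groups overlap (exact permutation test, two-sided, p = 0.143, adjusted p = 0.3). The site over the gene start, chr6:71149563-71150133, was the only one that all GF+HFM libraries called. Its percentiles were 80.5, 67.9, 59.4 and 24.1 in GF+HFM and 39.6 and 45.1 in CV+HFM replicates 1 and 3. The direct repeat printed in capitals above lies directly before the start of the gene, at chr6:71149806-71149818. The other 3 sites lay 5589 to 18961 bp upstream and were called in 2 or 3 GF+HFM and in at most 1 CV+HFM library.

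Fabp2, the intestinal fatty acid binding protein, is a compact gene at chr3:122597990-122602424 on the plus strand with a dense row of sites. Its 10 sites amount to 2.25 per 10 kb of window, a density above that of 99.3% of 22380 protein-coding genes, and 94.6% of those genes had fewer sites. The median coding gene had 2 sites. GF+HFM libraries called 9, 8, 8 and 9 of the Fabp2 sites and CV+HFM libraries called 8, 4, 7 and 3, with means of 8.5 ± 0.577 and 5.5 ± 2.38 (SD, n = 4 each; exact permutation test, two-sided, p = 0.0857, adjusted p = 0.287). Per 1000 sites of the library, the values were 0.259, 0.275, 0.243 and 0.267 in GF+HFM and 0.289, 0.458, 0.355 and 0.734 in CV+HFM. Fabp2 thus took a larger share of every CV+HFM list than of any GF+HFM list, a pattern held by 4.92% of gene windows, and it was the only one of the 9 genes with it. The separation was not kept with lists of equal length, where Fabp2 held 0, 1, 2 and 4 sites in GF+HFM and 0, 2, 3 and 3 in CV+HFM. The shortest lists, CV+HFM replicates 4 and 2, had the highest shares.

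Every GF+HFM library had a peak at 7 of the 10 Fabp2 sites, and at 3 of these every CV+HFM library did too. The upstream site chr3:122581141-122582482, 16179 bp before the start, was wide in all 8, at 85.7, 79.4, 92.6 and 97.8 in GF+HFM and 78.4, 90.8, 80.6 and 94.2 in CV+HFM. The libraries with the shortest lists ranked it as high as the others did, and all 8 peaks shared 292 bp. The site over the gene start, chr3:122597718-122598454, stood at 83.8, 50.1, 84.4 and 81.1 in GF+HFM and at 71.6, 8.93, 65.8 and 5.02 in CV+HFM. The low values belong to the short lists, in which its peaks were 118 and 52 bp wide. All 8 peaks shared 52 bp there, and those bases lie in the annotated UTR, so no sequence is given.

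The third Fabp2 site called in all 8 libraries, chr3:122579562-122580960, holds a pair of neighbouring peaks. GF+HFM replicates 1 to 3 and CV+HFM replicates 1 and 3 each had 2 peaks in it, which the single 1399 bp peak of GF+HFM replicate 4 joined. CV+HFM replicate 2 had a peak of 114 bp on one side and CV+HFM replicate 4 a peak of 52 bp on the other, and no base was shared by all 8 libraries. Counted as separate peaks, neither would be called in all 8. Between the upstream cluster and the gene, the sites 10376, 6666 and 5055 bp before the start each had peaks in every GF+HFM library, and in 2, 2 and 3 of the CV+HFM libraries.

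Acsl1, a long-chain acyl-CoA synthetase and a known target of PPAR receptors, lies at chr8:47556395-47621405 on the plus strand. GF+HFM libraries called 7, 6, 7 and 7 of its 7 sites and CV+HFM libraries called 6, 1, 6 and 1, so replicates 1 and 3 of CV+HFM had nearly all of them (exact permutation test, two-sided, p = 0.0857, adjusted p = 0.287). The site nearest the start, chr8:47555686-47556130, lay 487 bp upstream, with percentiles of 72.4, 61.5, 40 and 43 in GF+HFM and 39.6 and 41 in CV+HFM replicates 1 and 3. One Acsl1 site was kept in every library although it was not wide. It lies at the end of intron 12 and in the next coding exon, at chr8:47611357-47611777, with percentiles of 62.7, 41.4, 46.8 and 23.6 in GF+HFM and 48.8, 58.7, 22.3 and 69.9 in CV+HFM. Its mean GF+HFM percentile was 43.6 ± 16.1 (SD, n = 4), and among 3005 sites with means from 40 to 50, 37 sites or 1.23% were called in all 4 CV+HFM libraries, again a description of a site shown for its calls. The shared 156 bp hold the word CAAAGTCCA, which lay in 11.7% of the 200 bp windows of all sites called in 8 libraries.

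Acsl3 and Acsl4, synthetases linked to lipid droplets and to arachidonic acid, had little or no HNF4A binding in these lists. Acsl3, at chr1:78654400-78703562 on the plus strand, had 2 sites, each called in a single GF+HFM library. The site over the gene start, chr1:78654090-78654451, had a percentile of 60.7 in GF+HFM replicate 1, and the site 7946 bp upstream had 7.88 in GF+HFM replicate 3. Acsl4, at chrX:138752536-138825078 on the minus strand, had no peak in any of the 8 libraries, as was the case for 34.5% of protein-coding genes. Because depth is unknown, binding below the threshold of the peak caller is not detectable at either gene.

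Acsl5, the main long-chain synthetase of the small intestine, held the site with the highest mean width percentile of the 9 genes. It lies at chr19:55327859-55371117 on the plus strand. Libraries called 7, 7, 8 and 8 of its 8 sites in GF+HFM and 7, 2, 4 and 2 in CV+HFM, with means of 7.5 ± 0.577 and 3.75 ± 2.36 (SD, n = 4 each; exact permutation test, two-sided, p = 0.0857, adjusted p = 0.287). The upstream site chr19:55321782-55323130, 5403 bp before the start, had percentiles of 97.8, 99.6, 97.9 and 97.8 in GF+HFM and 98.9, 99.7, 99.4 and 99.1 in CV+HFM. By its mean over 8 libraries (98.8) it ranked 16 among the 3445 sites called in all 8, and by its lowest value it ranked 7. All 8 libraries had it among their widest peaks, whatever the length of the list.

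A second Acsl5 site called in all 8 libraries, chr19:55326159-55326740, lay 1410 bp upstream at 78.4, 65.2, 57.7 and 63.2 in GF+HFM and 69.3, 62.2, 77.8 and 68.2 in CV+HFM. The CV+HFM values lie within the GF+HFM range. The intron 1 site chr19:55331988-55334026 was as wide as the far upstream site in GF+HFM, at 97.3, 94.1, 99.9 and 99.8. In CV+HFM it was called at 95.9 in replicate 1 and at 60 in replicate 3, with no peak in replicates 2 and 4, although these called both sites above. The site holds a pair of neighbouring peaks, which GF+HFM replicates 3 and 4 joined into 1 and the other 4 calling libraries listed as 2, so its percentiles mix joined and separate peaks. The site nearest the start, in exon 1 at chr19:55327889-55328341, was called at 43.1, 41.8, 58.2 and 9.55 in GF+HFM and at 15.1 in CV+HFM replicate 1. The 2 downstream sites lie within 1 kb of the start of Zdhhc6.

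**Figure D4:**
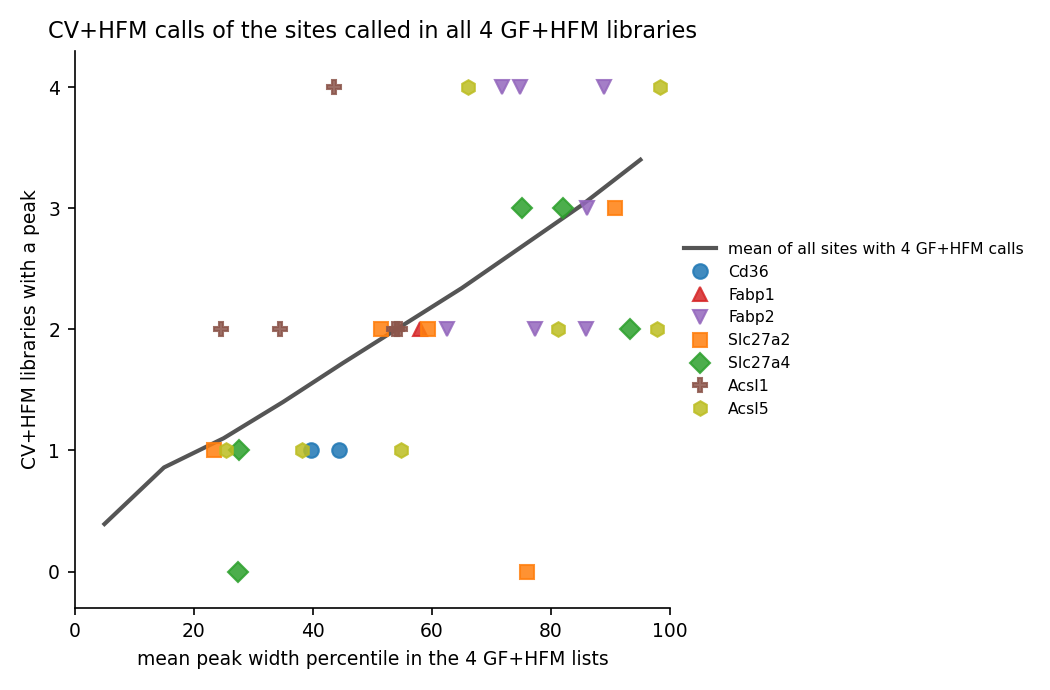
Number of CV+HFM libraries with a peak (y axis, 0 to 4) against the width percentile averaged over the GF+HFM lists (x axis) for the 33 sites that all GF+HFM libraries called, with 1 symbol and colour per gene. The grey line is the mean over all 23049 such sites of the genome in bins of 10 percentiles, which runs from 0.392 to 3.4. The Slc27a2 upstream site at 76 lies at 0 and the Acsl1 intron 12 site at 43.6 lies at 4.

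Width rank was compared directly at the 3445 sites that every library called, by fitting limma to normal scores of their rank. None of the 6 sites at Fabp2, Acsl1 and Acsl5 passed an adjusted p of 0.05, or an unadjusted p of 0.05, against a background of 0.116% of sites past the adjusted threshold (4 of 3445) and 398 sites past the unadjusted one. The difference, CV+HFM minus GF+HFM in units of the normal score, was 1.06 ± 0.53 (SE) at the Acsl1 site, with an adjusted p of 0.448. It was 0.65 ± 0.37 at the Acsl5 site 5403 bp upstream and 0.79 ± 0.38 at that 1410 bp upstream, with adjusted p of 0.498 and 0.425. At Fabp2 it was 0.17 ± 0.48 at the site 16179 bp upstream, -0.88 ± 0.61 at the joined site and -0.69 ± 0.46 at the gene start, with adjusted p of 0.922, 0.582 and 0.558. The Acsl1 site and both Acsl5 sites had the higher mean score in CV+HFM, and the Fabp2 gene start had the lower one. Among the 3445 sites, the Fabp2 gene start ranked at percentiles of 19.1, 1.81, 19.5 and 3.41 in CV+HFM replicates 1 to 4, lowest in the short lists. The joined site ranked at 42.7, 1.23, 1.73 and 3.41 there and at 10.1, 1.42, 26.2 and 89.6 in GF+HFM, so low ranks occurred in both groups. Over sites called in at least 6 libraries, 24 sites of these genes entered the fit, and the Acsl5 intron 1 site alone had an unadjusted p below 0.05 (-1.29 ± 0.57, adjusted p = 0.681).

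Other genes of fatty acid transport, binding and activation gave a measure of how common such sites are. Of 18 related genes, 13 had at least 1 site and the median was 2.5 sites, with a range from 0 to 12, against a median of 7 and a range from 0 to 10 at the 9 genes. The 58 sites of the related genes included 27 called in all 4 GF+HFM libraries and 3 called in all 8. A further 2 had 4 GF+HFM calls and no CV+HFM call when counted by that contrast, and 5 had a majority of their calls in CV+HFM. Over all merged sites, the shares with these patterns were 50.6%, 7.56%, 2.79% and 2.86%, in that order. Dbi, which encodes the acyl-CoA binding protein, held 12 sites, more than any other gene of either list. GF+HFM libraries called 10, 11, 10 and 9 Dbi sites and CV+HFM libraries called 7, 4, 8 and 2. Dbi, Slc27a5 and Acsbg1 were the 3 of 18 related genes whose groups did not overlap, against 12.2% of gene windows with a site. Fabp4, Fabp5, Fabp6 and Fabp9, binding proteins best known from fat, skin, ileum and testis, had no site, nor did Acsbg2.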

How the data were processed

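HNF4A peak lists of jejunal IECs from 4 GF+HFM mice and 4 CV+HFM mice were used, grouped and numbered from the sample labels. Not analysed here were RNA-seq, H3K27ac and input libraries, and the GF and CV conditions without HFM. Reads had been aligned to mm9 by the authors with Bowtie2, and peaks called mouse by mouse with MACS2 2.1.1.20160309 against input DNA (false discovery rate below 0.05, bandwidth 300 bp). Replicates were not pooled. The deposited lists hold positions in bp and no count, score or p-value.

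Peaks sharing at least 1 bp were merged with Python 3.11.15, and a site counted as called by each library with a peak inside it. Genes, introns and exons follow GENCODE M1, by the transcript with the most exons, and sequence was read from NCBIM37 with pysam 0.24.0. Calls per site were compared by Fisher's exact test (scipy 1.17.1) over 45552 sites. Sites per gene window were compared by exact permutation over 14653 windows, and width ranks with limma 3.58.1 in R 4.3.3 over 3445 sites, all with Benjamini-Hochberg adjustment. The limma step was tested on simulated data of 3445 sites for this comparison, where it recovered 67.5% of 200 sites shifted by 3 SD with 6.25% false calls. Each mouse gave 1 library, so n counts mice.

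The 9 genes, the 18 related genes and the motifs were chosen with earlier results of these data known. All 9 genes are named. Values are given for the site nearest the start and the site called in most libraries of each gene, and for every site called in all 8 libraries, in 4 against 0, or in more CV+HFM than GF+HFM libraries. Other sites of these genes were named after their values were seen. Alternatives were windows of 5 and 50 kb, 50% cover, peaks of at least 300 bp, the widest 4533 peaks, each library left out, sites per 1000, the replicate block, log2 width and sites called in at least 6 libraries. The 9 unplaced sequence names in the lists were not used for genes or sequence.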

Additional observations from a re-analysis of the deposited data

Results flagged for a closer look

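In groups of 4 libraries, a value was picked out when its gap to the nearest other value took up most of the range of the group. Of 19 groups examined at these genes, 3 were picked out. Chance gives about 1 in 20 for continuous values, a rate that does not apply here, since in all 3 groups the other libraries had equal counts and any difference, even of 1 site, is then picked out. CV+HFM replicate 3 called 2 Cd36 sites, and the other CV+HFM libraries called 0. GF+HFM replicate 1 called 2 Fabp1 sites, and the other GF+HFM libraries called 3. GF+HFM replicate 2 called 6 Acsl1 sites, and the other GF+HFM libraries called 7. The last 2 differ from their groups by a single site.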

How the results depend on the processing

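The 56 sites became 37 with windows of 5 kb and 15 with the widest peaks of each list, and ranged from 52 to 56 with 1 library left out. Sites called in 4 GF+HFM and no CV+HFM libraries (2, background 2.79% of sites) became 4 with 50% cover (4.89%) and 0 with the widest peaks (0.515%). With 1 library left out they ranged from 2 to 7 (background 2.8% to 10.9%). Genes with more sites in every GF+HFM library (3, background 12.2% of windows) became 1 with peaks of at least 300 bp (11.5%) and 0 with the widest peaks (0.736%). Per 1000 sites there was 1 such gene (4.38%), and with 1 library left out there were 3 to 6 (12.2% to 38.2%). With the replicate number as a block, GF+HFM exceeded CV+HFM in all 4 pairs at 5 genes, against 30.7% of windows. Call deviations of same-numbered libraries correlated at -0.03, -0.05, -0.04 and 0.06, and deviations of their width scores at 0.05, 0.07, -0.08 and 0.14. Such small values do not exclude that same-numbered libraries were processed together. In the limma test 0 sites of these genes passed under all 11 alternatives, the block included, with 0 to 3 past an unadjusted p of 0.05. Of the 52 alternatives over the 4 counts, 40 stayed within 1.5 times the main count. These 40 include the 11 of the limma test, where 0 was met by 0 and no ratio applies. The number of sites stayed within that limit under 11 of 13 alternatives. The count of 4 against 0 did so under 8 of 13, and the count of genes under 10 of 15. The cause of each move was not tested. Depth is unknown, so absence from a list, in particular from those of CV+HFM replicates 2 and 4, does not show that a site was unbound. Peak width is an indirect measure of strength, and its floor differed between lists.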
